A study of Mus musculus with 36 samples.

Results

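The Lce and Sprr genes encode 2 families of small proteins that are cross-linked into the cornified envelope, the tough protein shell that replaces the cell membrane of keratinocytes at the skin surface. They were taken as every gene whose deposited symbol begins with Lce or Sprr, which gave 38 of 55414 genes. Of these, 14 belong to Lce1, 6 to Lce3, 2 to Sprr1 and 13 to Sprr2, and Lce6a, Sprr3 and Sprr4 stand alone. In total 37 members had enough counts to be tested, the exception being the pseudogene Sprr2c-ps, and 31 reached a mean of 10 CPM (counts per 1000000 counted reads of the library) in at least 1 group. One related gene, Sprr5, carries the symbol 2310046K23Rik in the files and so is not a member.

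The data are poly(A) RNA-seq libraries from whole mouse skin, 36 in all. Unwounded skin, labelled day 0, gave 3 of them. Of the wounds in the arm labelled P, 5 were sampled 2 days after injury, 5 after 4 days and 6 after 12 days. In the arm labelled PD the numbers were 5, 6 and 6. The labels do not spell out P and PD, and genotype, strain, age, agent and animal identity are not given in the sources used here; the series title concerns removal of senescent cells with high p21. The unwounded libraries carry no arm label, so both arms are compared with the same 3 libraries. Nothing says that the libraries of a group came from separate animals, so p-values measure only the spread between these samples. The counted reads of a library totalled 11.81 M to 58.38 M (M for 1000000), with a median of 30.4 M.

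As background, keratinocytes switch on envelope genes as they leave the basal layer. Involucrin, loricrin, Sprr and Lce proteins are joined by transglutaminases, and Lce proteins are added late. In intact body skin the Lce1 genes are the main Lce group of the cornifying layer, whereas LCE3, SPRR1 and SPRR2 genes are known for induction in injured, inflamed or psoriatic epidermis. SPRR3 is best known from lining epithelia of mouth and oesophagus. The families sit side by side in the epidermal differentiation complex.

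All 38 members lie on chromosome 3 between positions 92123106 and 92926367 (GRCm39, GENCODE vM39), a span of 0.803 Mb. Their order is Sprr2, Sprr1b, Sprr3, Sprr1a, Sprr4, Lce6a, 13 of the 14 Lce1 genes, the Lce3 genes and last Lce1m, which is parted from the other Lce1 genes by the Lce3 block. The 250 bases upstream of the annotated start are shown for the most abundant member of each main group and for both Sprr1 genes, because the results turn on these genes. Lce1g is shown as well and was chosen after its values were seen. Each is printed 5′ to 3′ on the gene's strand. Capitals mark TATAAA (the letters of the TATA box) and TGANTCA, searched on both strands at any position in the window. TGANTCA is looser than TGAGTCA or TGACTCA, the site of AP-1, the Fos and Jun factors that act in stressed and differentiating keratinocytes. The windows are Sprr1b at chr3:92346097-92346346 (minus strand), Sprr1a at chr3:92393209-92393458 (minus), Sprr2h at chr3:92292742-92292991 (plus), Sprr3 at chr3:92366032-92366281 (minus), Lce3c at chr3:92851543-92851792 (plus), Lce1g at chr3:92659646-92659895 (minus) and Lce1m at chr3:92926368-92926617 (minus).
Sprr1b: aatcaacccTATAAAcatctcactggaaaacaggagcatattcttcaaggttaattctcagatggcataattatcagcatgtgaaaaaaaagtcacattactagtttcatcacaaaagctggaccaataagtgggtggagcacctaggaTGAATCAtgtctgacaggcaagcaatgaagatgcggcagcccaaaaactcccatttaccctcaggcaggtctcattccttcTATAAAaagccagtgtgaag
Sprr1a: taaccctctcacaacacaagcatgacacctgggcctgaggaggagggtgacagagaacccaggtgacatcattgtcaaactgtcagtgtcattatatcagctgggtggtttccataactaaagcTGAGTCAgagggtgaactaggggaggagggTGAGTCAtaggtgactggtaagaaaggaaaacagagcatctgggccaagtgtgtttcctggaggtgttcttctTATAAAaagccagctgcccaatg
Sprr2h: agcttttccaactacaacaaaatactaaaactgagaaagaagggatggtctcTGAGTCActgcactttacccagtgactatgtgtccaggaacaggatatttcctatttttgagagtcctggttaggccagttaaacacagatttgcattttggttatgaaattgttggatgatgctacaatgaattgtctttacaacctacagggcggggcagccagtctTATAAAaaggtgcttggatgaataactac
Sprr3: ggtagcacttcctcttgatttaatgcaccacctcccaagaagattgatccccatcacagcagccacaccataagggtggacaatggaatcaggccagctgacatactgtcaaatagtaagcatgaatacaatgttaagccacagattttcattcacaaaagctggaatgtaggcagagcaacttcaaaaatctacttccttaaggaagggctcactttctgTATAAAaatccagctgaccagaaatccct
Lce3c: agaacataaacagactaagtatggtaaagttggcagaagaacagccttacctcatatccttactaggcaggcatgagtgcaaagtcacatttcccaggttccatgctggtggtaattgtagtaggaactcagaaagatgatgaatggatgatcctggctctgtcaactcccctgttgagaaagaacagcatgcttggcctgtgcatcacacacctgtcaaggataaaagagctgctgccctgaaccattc
Lce1g: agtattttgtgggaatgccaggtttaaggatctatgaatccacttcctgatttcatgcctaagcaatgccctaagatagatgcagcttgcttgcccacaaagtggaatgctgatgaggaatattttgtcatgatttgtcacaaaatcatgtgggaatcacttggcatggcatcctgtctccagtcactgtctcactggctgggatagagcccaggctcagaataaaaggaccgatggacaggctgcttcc
Lce1m: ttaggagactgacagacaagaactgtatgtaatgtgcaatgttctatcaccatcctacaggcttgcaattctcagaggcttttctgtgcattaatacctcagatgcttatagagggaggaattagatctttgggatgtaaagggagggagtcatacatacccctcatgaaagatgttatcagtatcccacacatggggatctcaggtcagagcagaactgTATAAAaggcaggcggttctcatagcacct

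The letters TGANTCA were present upstream of 2 of 2 Sprr1 genes and 9 of 13 Sprr2 genes, and of 0 of 14 Lce1 and 0 of 6 Lce3 genes. Windows of the same length upstream of 21720 other protein-coding genes held them in 6.14% of cases. In Sprr1a the 2 matches begin 126 and 96 bases before the start, in Sprr1b the match begins 101 bases before it, and in Sprr2h 198 bases before it. TATAAA was found in 2 of 2 Sprr1, 9 of 13 Sprr2, 1 of 6 Lce3 and 2 of 14 Lce1 windows, against 11.9% of the other genes. Lce1m is 1 of those 2 Lce1 genes. The search set no limit on position. The Lce3 match, in Lce3e, lies on the opposite strand and begins 243 bases before the start. In Sprr1b 1 match begins 241 bases and the other 20 bases before the start. AATAAAA, a string searched for after the sequences were seen, was in 10 of 14 Lce1 windows and 7.64% of those of the other genes. Lce3c and Lce1g held neither capitalised motif. The C/EBP string TTGCNNAA was present for 2 of 38 members against 9.35% of other genes, and the Ets string AGGAAG for 18 of 38 against 28.9%. The strings AACCNGTT (Grainyhead-like) and GGGTGTGG (Klf) were in no member's window, against 1.8% and 3.57%. A match is a description of letters and not a measured site.

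Some members share sequence, which limits how reads could be assigned. Of the 50-base stretches in their exons, Sprr2a1 and Sprr2a2 shared 96.8% and 94.0% with other genes, mostly with each other, and Sprr2a3 shared 61.1%. Values of these 3 genes are therefore uncertain. Lce3c to Lce3f shared 32.7% to 49.3% of theirs. Lce1b shared 84.6% and Lce6a 11.4% with other genes, and in each the gene with the most matches was the antisense gene Gm35639. The strand setting of the counting is not given in the sources used here. Sprr1a, Sprr1b, Sprr2h, Sprr3, Sprr4 and Lce1m shared none.

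One feature of the libraries bears on all results below. In the labels the libraries of each group are numbered, and those numbered 1 and 2 stood apart from the rest. In 5 of the 6 wound groups both had more Sprr2 and more Lce3 than every other library of the group, P day 4 being the exception. The same held for Lce1 and for Sprr1 in 3 of 6 groups, namely day 2 of both arms and PD day 4, whereas in P day 12 both had less Lce1 than every other library (961 and 1332 against 1451 to 1900 CPM). A list of 15 tested epidermal keratins and keratinocyte markers was higher in both in 4 of 6 groups, 8 fibroblast genes in 3 of 6 and 8 macrophage genes in 3 of 6 (and lower in 1), while 8 skeletal muscle genes were lower in both in 3 of 6. What the numbers stand for is not given in the sources used here, and their part in the results was not tested beyond the fits given with and without them. In whole tissue, fewer keratinocytes and less RNA per keratinocyte cannot be told apart.

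In unwounded skin the Lce1 genes made up nearly the whole output of the locus. Their summed level was 1315, 836 and 1383 CPM in the 3 libraries, which was 96.4% to 97.2% of all member counts. Sprr1 summed to 25, 22.6 and 29.7 CPM, Lce3 to 0.481, 0.411 and 0.756 CPM, and Sprr2 to 0.79, 1.25 and 1.81 CPM. No library had a Sprr3 count, and 12 of the 38 members had no count in any unwounded library, among them 4 of the 6 Lce3 genes and 7 of the 13 Sprr2 genes. Per kilobase of exon, Lce1m led with a mean level of 565 CPM per kb, followed by Lce1c at 186, Lce1a2 at 181, Lce1a1 at 173 and Lce1b at 157. Sprr1a, at 15.6 CPM per kb, was the highest Sprr gene, and Sprr1b stood at 0.178. These per-length values are means of 3 libraries.

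**Figure D1:**
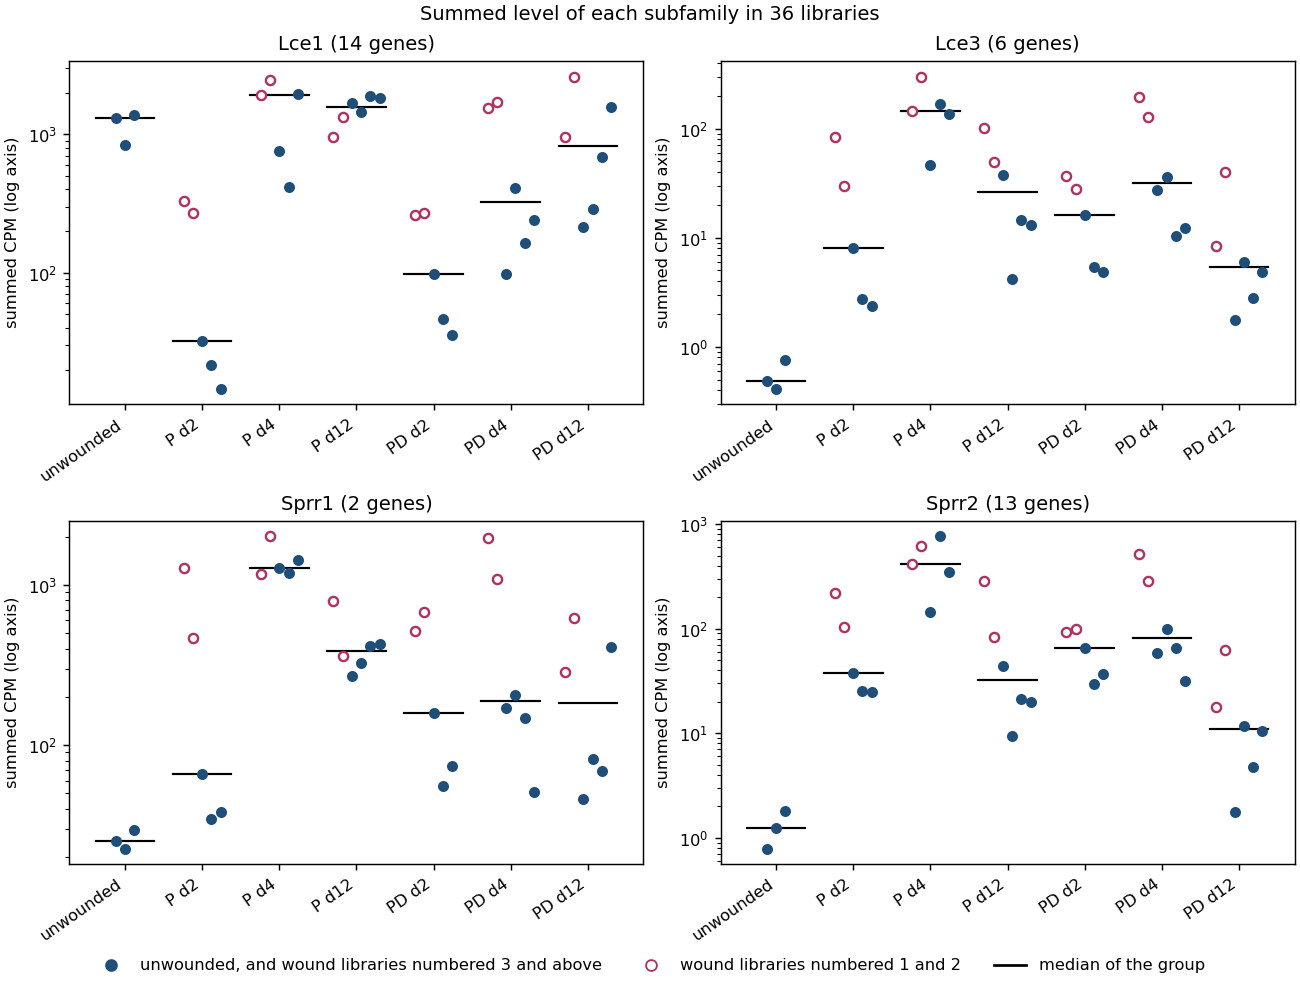
Summed CPM (log axis) of the Lce1, Lce3, Sprr1 and Sprr2 genes in each of the 36 libraries by group. Points are libraries, open circles are wound libraries numbered 1 and 2, and bars are group medians; Lce1 dips at day 2 to medians of 32 (P) and 97.8 (PD) CPM, whereas the other 3 sets lie above the unwounded libraries in all wound groups except for 1 PD day 12 library in Sprr2.

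At day 2 the make-up of member counts had turned from Lce1 to Sprr. Summed Lce1 was 329, 271, 32, 21.7 and 14.5 CPM in P wounds and 260, 270, 97.8, 46.0 and 35.8 CPM in PD wounds, all below the lowest unwounded library. Summed Sprr1 was 1272, 463, 66.4, 34.6 and 38.2 CPM in P and 512, 674, 159, 55.6 and 73.7 CPM in PD, all above the highest unwounded library. Sprr genes together supplied 65.1% to 78.6% of member counts in P and 62.2% to 73.0% in PD, against 1.96% to 2.82% in unwounded skin. The turn in shares was thus present in every day 2 library, although the summed levels differed widely between libraries 1 and 2 and the others. All members together summed to 1921, 876, 145, 85.7 and 80.1 CPM in P and 908, 1083, 342, 137 and 152 CPM in PD. In unwounded skin they summed to 1352, 867 and 1427 CPM. In P libraries 4 and 5 summed Sprr1 was little above the unwounded range, so the high Sprr share there came with low Lce1. Summed Krt5 and Krt14, the keratins of basal keratinocytes, stood at 7262 to 13565 CPM in P and 8771 to 12702 CPM in PD at day 2, and at 4916 to 10269 CPM in unwounded skin. Summed Krt1 and Krt10, keratins of keratinocytes that have left the basal layer, were lower at day 2. They stood at 255 to 1670 CPM in P and 409 to 1601 CPM in PD, against 3849 to 5949 CPM in unwounded skin. The part of this drop in the Lce1 values was not tested.

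Of 37 members, 15 rose and 8 fell in P wounds at day 2 against unwounded skin (edgeR quasi-likelihood test, Benjamini-Hochberg adjusted p under 0.05 over 20657 genes), where 22.3% of all genes rose and 19% fell. In PD wounds 14 rose and 8 fell, against 21% and 18.4% of all genes. The median log2 change of the members was 2.63 in P and 2.44 in PD, against 0.02 over all genes in each. Beside these medians, the 14 Lce1 genes had medians of -1.84 and -1.81, the 6 Lce3 genes 8.84 and 7.96, and the 12 tested Sprr2 genes 6.51 and 5.94. With genes at 0 in unwounded skin set to their lower bound, the Lce3 medians were 6.36 and 5.80 and the Sprr2 medians 4.36 and 3.76. The medians over all members were then 2.50 in P and 1.69 in PD. The 8 members that fell were Lce1a1, Lce1a2, Lce1b, Lce1c, Lce1d, Lce1l, Lce1m and Lce6a in each arm, which share their unwounded controls. That count fell to 5 in P without unwounded library 1 or 3 or P library 3 or 4, and to 5 in PD without unwounded library 1 or 3 or PD library 3, 4 or 5. With limma-voom 2 members rose in P and 2 in PD, and the share of all genes it called is not given here. The 14 that rose in PD became 7 without unwounded library 1 and 6 without unwounded library 2.

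Lce1m, the most abundant member of intact skin, had the deepest fall. It measured 630, 371 and 607 CPM in unwounded skin, then 32.7, 38.6, 3.33, 3.29 and 1.89 CPM in P and 34.9, 26.7, 11.5, 9.31 and 7.57 CPM in PD at day 2. Every day 2 library lay below every unwounded one by a wide margin. The log2 change was -5.17 ± 0.99 (SE, n = 5 against 3, edgeR adjusted p = 0.000103) in P and -5.03 ± 0.99 (n = 5 against 3, edgeR adjusted p = 0.000158) in PD. Lce1g went the other way within the same subfamily: 0.859, 0.942 and 0.958 CPM in unwounded skin against 12.0, 11.8, 2.95, 0.642 and 0.709 CPM in P and 9.16, 11.5, 4.34, 1.71 and 1.17 CPM in PD. P libraries 4 and 5 lay below the unwounded ones, so the groups overlap in P. Its log2 changes were 2.50 ± 0.98 (edgeR adjusted p = 0.0404) and 2.44 ± 0.98 (edgeR adjusted p = 0.0474). Both calls were lost with limma-voom (limma adjusted p = 0.433 and 0.345), with the Krt5 and Krt14 covariate (edgeR adjusted p = 0.127 and 0.173), with libraries numbered 3 and above only (edgeR adjusted p = 0.562 and 0.157) and, with edgeR adjusted p up to 0.107 in P and 0.115 in PD, when any unwounded library, P library 1 or 2, or PD library 1, 2 or 3 was left out.

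Among the Sprr genes, Sprr1b, a cross-linked precursor of the envelope, went from under 1 CPM to well above it in every wound library of day 2. It was at 0.206, 0.137 and 0.101 CPM in unwounded skin, at 676, 292, 27.6, 13.5 and 16.4 CPM in P day 2 and at 261, 364, 67.1, 25.4 and 32.3 CPM in PD day 2. Libraries 1 and 2 were the highest of each arm, and every wound library exceeded every unwounded one. The log2 change was 10.26 ± 2.05 in P (edgeR adjusted p = 0.000172) and 9.76 ± 2.02 in PD (edgeR adjusted p = 0.000294). With limma-voom the changes were 8.61 and 8.94 and did not pass (limma adjusted p = 0.0941 and 0.0838). Its neighbour Sprr1a, known for induction in injured nerve and stressed heart as well as skin, was already at 24.8, 22.5 and 29.6 CPM in unwounded skin. It measured 596, 171, 38.8, 21.1 and 21.8 CPM in P and 251, 310, 92.0, 30.1 and 41.4 CPM in PD, with P libraries 4 and 5 below the unwounded range. Its changes of 2.63 ± 1.10 (edgeR adjusted p = 0.0544) and 2.35 ± 1.08 (edgeR adjusted p = 0.0843) did not pass. The P change passed in 5 of 14 other settings and when P library 3, 4 or 5 was left out, and the PD change in 6 of 14. With the replicate block the log2 change of Sprr1a, PD day 2 against unwounded skin, was 2.24 and passed (edgeR adjusted p = 0.0399).

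Sprr2h, the most abundant Sprr2 gene, was at 0.309, 0.12 and 0.151 CPM in unwounded skin. At day 2 it stood at 117, 56.0, 14.8, 9.49 and 9.86 CPM in P and at 57.9, 58.6, 30.5, 16.6 and 19.2 CPM in PD, with no overlap. It rose by 7.67 ± 1.52 on the log2 scale in P (edgeR adjusted p = 0.000157) and 7.44 ± 1.51 in PD (edgeR adjusted p = 0.000241). Sprr2d had no count in unwounded skin. With the counts of each group pooled, it was at least 513-fold higher in P and at least 220-fold higher in PD. These folds take a floor of 3 counts over the 3 unwounded libraries and need not hold for a single library. Sprr2d stood at 31.9, 19.9, 3.37, 2.6 and 2.72 CPM in P and at 7.97, 10.98, 7.01, 2.64 and 1.8 CPM in PD. In P, 1513 and 847 of the 2624 pooled counts came from libraries 1 and 2. The Lce3 gene Lce3d, at 0.137, 0 and 0.202 CPM in unwounded skin, reached 20.8, 7.01, 2.39, 0.949 and 0.827 CPM in P and 10.1, 6.83, 4.28, 1.97 and 1.24 CPM in PD. It too did not overlap, with log2 changes of 6.05 ± 1.63 (edgeR adjusted p = 0.00337) and 5.61 ± 1.61 (edgeR adjusted p = 0.00626), neither of which passed with limma-voom (limma adjusted p = 0.0746 and 0.0709). All 6 Lce3 genes rose at day 2 in both arms.

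**Figure D2:**
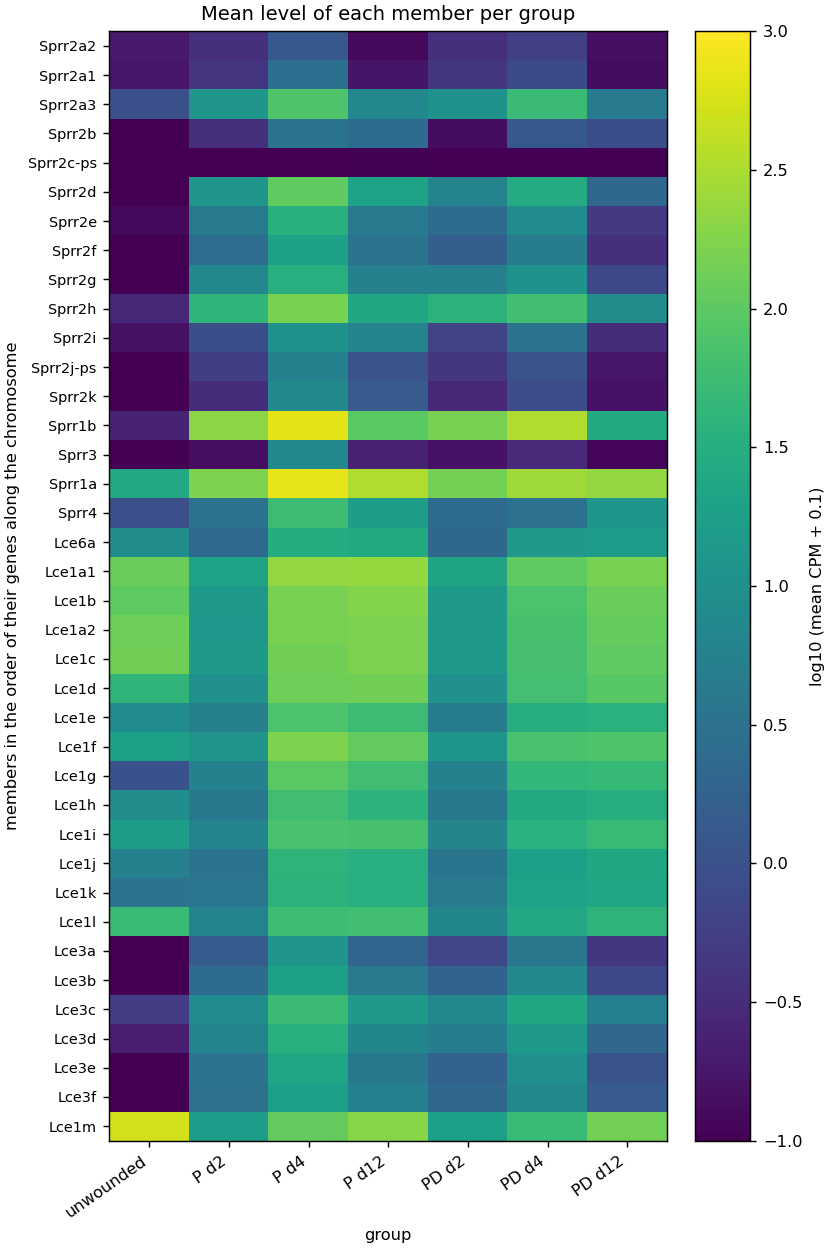
Mean CPM of each of the 38 members (rows, in chromosome order) in each of the 7 groups (columns), coloured as log10 of mean CPM plus 0.1. The Lce1 rows are darker at day 2 than at days 4 and 12, the Lce3 and tested Sprr2 rows are brightest in P day 4, and Lce1m in the bottom row is brightest in unwounded skin.

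Day 4 of the P arm held the highest group mean of 30 of the 38 members. Summed Lce1 there was 1928, 2487, 758, 415 and 1947 CPM, Sprr1 was 1168, 2007, 1273, 1180 and 1437 CPM, Lce3 was 145, 299, 46.0, 169 and 135 CPM, and Sprr2 was 418, 612, 146, 764 and 347 CPM. Sprr1 was thus the most even of these sums across the 5 libraries, although Sprr1b alone ran from 230 to 1292 CPM. In library 3 Sprr1a was the highest of the group (1044 CPM) and Sprr1b the lowest (230 CPM). Lce1 was low in libraries 3 and 4. Summed Krt1 and Krt10 were low there too, at 3456 and 1826 CPM against 11133 to 19757 CPM in the other libraries of the group. Against unwounded skin 27 of 37 members rose and 1 fell, beside 23.6% and 19.7% of all genes. All 6 Lce3, both Sprr1 and all 12 tested Sprr2 genes rose, and of the Lce1 genes 5 of 14 did. The 1 that fell was Lce1m, and this call was lost without unwounded library 1, 2 or 3 or P library 3 or 4. The median log2 change was 6.47 over the 37 members, with or without the lower bounds, and 0.08 over all genes.

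In PD wounds at day 4 the summed levels were split by library number. Libraries 1 and 2 had 1559 and 1721 CPM of Lce1 and 1948 and 1092 CPM of Sprr1, levels like those of the P arm. The other 4 had 98.4, 411, 163 and 239 CPM of Lce1 and 171, 205, 147 and 51.2 CPM of Sprr1. Lce3 was 193, 127, 27.3, 35.9, 10.3 and 12.3 CPM, and Sprr2 was 514, 289, 58.1, 98.7, 65.7 and 31.3 CPM. Even the lower 4 libraries were far above unwounded skin in Lce3 and Sprr2. Of 37 members 21 rose and 1 fell, beside 25.4% and 21.8% of all genes, with a median log2 change of 5.46 over the members and 0.04 over all genes. With genes at 0 in unwounded skin set to their lower bound, the member median was 3.29. With wound libraries numbered 3 and above only, 19 rose and 6 fell of the 35 members then tested. The share of all genes called by that fit is not given here.

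Sprr1b and Sprr2h were again far above unwounded skin at day 4. With pooled counts and the same floor, Sprr2d was at least 3561-fold higher in P and at least 1019-fold higher in PD. Single libraries held 31.03 to 220.6 CPM of Sprr2d in P and 4.23 to 88.4 CPM, with a median of 9.56, in PD. Sprr1b measured 700, 1292, 230, 468 and 772 CPM in P, a log2 change of 12.05 ± 2.17 (edgeR adjusted p = 5.27e-05), and 30.5 to 1154 CPM with a median of 105 in PD, a change of 10.97 ± 2.09 (edgeR adjusted p = 8.52e-05). Sprr2h measured 145, 266, 53.4, 186 and 121 CPM in P (log2 change 9.61 ± 1.62, edgeR adjusted p = 2.25e-05) and 13.5 to 194 CPM with a median of 23.8 in PD (8.25 ± 1.55, edgeR adjusted p = 6.69e-05). No library of either group overlapped the unwounded ones in these genes. Sprr1a, at 468, 715, 1044, 712 and 665 CPM in P, rose by 4.73 ± 1.24 on the log2 scale (edgeR adjusted p = 0.00275). Per kilobase the order of mean levels in P day 4 was Sprr1b at 834 CPM per kb, Sprr1a at 438, Lce1a1 at 321, Sprr4 at 242 and Lce1b at 236. The spread over libraries is wide enough that neighbours in this order do not stand apart, and the place of Sprr4 rests on 1 library.

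Lce3c was at 50.5, 105, 14.6, 44.3 and 52.0 CPM in P day 4, up by 6.87 ± 1.49 on the log2 scale (edgeR adjusted p = 0.000461), and at 3.86 to 71.2 CPM with a median of 11.5 in PD, up by 5.73 ± 1.41 (edgeR adjusted p = 0.00137). Its unwounded values were 0.344, 0.411 and 0.554 CPM. Lce3d rose by 8.53 ± 1.74 (edgeR adjusted p = 0.00024) and 7.19 ± 1.67 (edgeR adjusted p = 0.000745). Lce1g, little expressed in intact skin, measured 115, 154, 48.4, 42.3 and 117 CPM in P day 4, a log2 change of 6.59 ± 1.17 (edgeR adjusted p = 4.53e-05), and 9.29 to 92.2 CPM with a median of 27.5 in PD, a change of 5.46 ± 1.11 (edgeR adjusted p = 0.000177). Lce1k rose by 3.46 ± 0.95 in P (edgeR adjusted p = 0.0042), a call lost with the Krt5 and Krt14 covariate (edgeR adjusted p = 0.131). Lce1m, at 154, 190, 38.6, 21.6 and 148 CPM in P and 7.23 to 153 CPM in PD, stayed below its unwounded level in every library, with a log2 change of -3.48 ± 0.87 in PD (edgeR adjusted p = 0.00166).

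The change within Lce1 can be read inside each library, where depth and scaling cancel. Lce1g shares sequence with other genes and Lce1m does not, so their reads may not be assigned equally well. Lce1m made up 47.9%, 44.4% and 43.9% of Lce1 counts in unwounded skin. In wounds its share was 9.94% to 15.2% in P day 2, 5.09% to 8% in P day 4 and 7.29% to 15.5% in P day 12, and 9.91% to 21.2%, 4.96% to 8.90% and 9.61% to 18% at the same days in PD. All 33 wound libraries lay below all 3 unwounded libraries. The share of Lce1g was 0.0653%, 0.113% and 0.0693% in unwounded skin and 2.60% to 10.7% in wounds, above the unwounded values in 33 of 33 libraries. This held in libraries 1 and 2 and in the others, and at day 12 as well, when summed Lce1 in P overlapped the unwounded libraries. Within Sprr1, Sprr1b supplied 0.339% to 0.825% of counts in unwounded skin, 39.1% to 63.1% in P day 2, 42.2% to 54.0% in PD day 2, 18% to 64.4% in P day 4 and 47.1% to 60.2% in PD day 4. At day 12 its share had dropped to 5.13% to 37.4% in P and 3.16% to 16.4% in PD.

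**Figure D3:**
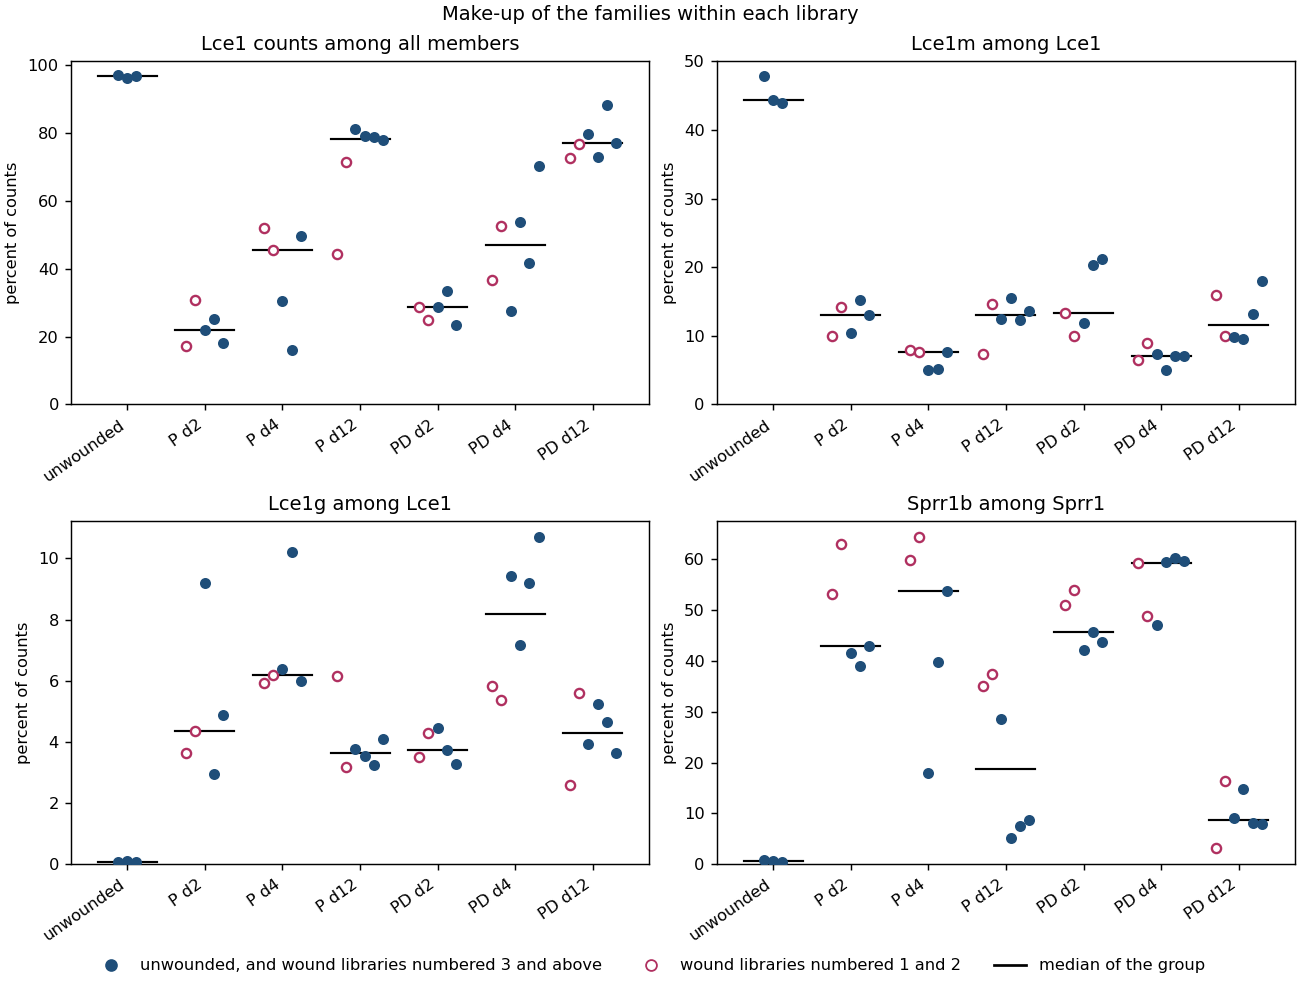
Percent of counts within each library, by group: Lce1 among all members, Lce1m among Lce1, Lce1g among Lce1 and Sprr1b among Sprr1. Points are libraries, open circles are wound libraries numbered 1 and 2 and bars are medians; the 33 wound libraries do not overlap the 3 unwounded ones in any panel.

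From day 2 to day 4 the whole Lce1 group came up in P wounds. All 14 Lce1 genes rose, as did Lce6a, Sprr3 and 5 Sprr2 genes, 21 of 37 members in all, and 0 fell, beside 5.76% and 2.70% of all genes. The median log2 change of Lce1 was 3.48, against 3.31 over all members. Lce6a, a single late envelope gene, went from 4.60, 5.11, 0.427, 0.893 and 0.236 CPM at day 2 to 40.6, 51.4, 13.1, 8.04 and 38.2 CPM at day 4, without overlap (log2 change 3.74 ± 0.82, edgeR adjusted p = 0.00447). Its call was lost with the Krt5 and Krt14 level as a covariate (log2 change 2.59, edgeR adjusted p = 0.0692). Summed Krt5 and Krt14 moved with this step, from 7262 to 13565 CPM at day 2 to 10397 to 22213 CPM at day 4 in P. With that level as a covariate 4 members rose, and over all settings the count ran from 4 to 37. The shares of all genes called by those fits are not given here. The count of 21 became 12 without P day 2 library 4 and 13 without library 5. In PD wounds the same step gave 4 higher and 0 lower members, beside 2.67% and 1.59% of all genes: Lce1d, Lce1g, Lce6a and Sprr2b, named here because they are few. That count was 1 or 0 without PD day 2 library 1, 3, 4 or 5, was 1 without PD day 4 library 1, and was 2 without PD day 4 library 2 or 4. The difference between the arms in this step was tested as an interaction, and 0 of 37 members and 0.0% of all genes passed (edgeR). At unadjusted p under 0.05 the interaction held 2 members and 7.13% of all genes.

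By day 12 the families had parted. Summed Lce1 in P wounds was 961 to 1900 CPM with a median of 1569, overlapping the unwounded libraries, and in PD wounds 215 to 2613 CPM with a median of 823. Lce3 was 4.18 to 101 CPM with a median of 26.1 in P and 1.74 to 39.7 CPM with a median of 5.41 in PD. Sprr2 was 9.39 to 284 CPM with a median of 32.7 in P and 1.77 to 63.2 CPM with a median of 11 in PD. For Lce3 and Sprr2, libraries 1 and 2 were the highest in both arms. Summed Sprr1 was 268 to 789 CPM in P and 46.0 to 624 CPM in PD, above every unwounded library. Against unwounded skin 21 members rose and 0 fell in P, beside 23.7% and 20% of all genes. In PD 11 rose and 1 fell, beside 24.2% and 20.7%. The PD count of 11 became 4 without PD library 2, and 4, 3 and 5 without unwounded library 1, 2 and 3. The 1 that fell, Lce1m, lost its call without any 1 of the unwounded libraries or PD library 3, 4 or 5. Median log2 changes were 4.08 and 2.59 over the members and 0.10 and 0.09 over all genes. With genes at 0 in unwounded skin set to their lower bound, the member medians were 3.45 and 2.19. The scaling of libraries moved the median of all genes by up to 0.27 at day 12, when composition factors were left out.

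Sprr1b remained above unwounded skin at day 12, at 16.7 to 276 CPM with a median of 57.0 in P (log2 change 9.05 ± 1.97, edgeR adjusted p = 0.000472) and 4.21 to 102 CPM with a median of 10.6 in PD (7.21 ± 1.85, edgeR adjusted p = 0.00241). Sprr2h was at 4.91 to 72.0 CPM in P (6.81 ± 1.47, edgeR adjusted p = 0.000449) and 0.813 to 34.4 CPM in PD (5.33 ± 1.41, edgeR adjusted p = 0.00311). These did not overlap the unwounded values. With limma-voom these calls were lost, with limma adjusted p of 0.103 and 0.223 for Sprr1b and 0.0506 and 0.185 for Sprr2h, as was that of Lce3c in P (0.0609). Lce3c, at 2.72 to 35.7 CPM in P, was up by 4.80 ± 1.36 (edgeR adjusted p = 0.00506). Lce1g, at 42.5 to 74.3 CPM in P and 8.41 to 146 CPM in PD, was up by 5.71 ± 1.12 (edgeR adjusted p = 0.000149) and 5.41 ± 1.10 (edgeR adjusted p = 0.000248), and Lce1k was up by 3.07 ± 0.92 in P (edgeR adjusted p = 0.00793). Sprr1a stood at 191 to 513 CPM in P and 41.8 to 522 CPM in PD, against 22.5 to 29.6 CPM in unwounded skin. It was called higher in both arms in the main fit, by 3.45 and 2.89 on the log2 scale.

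Between day 4 and day 12 the members that fell were Lce3 and Sprr genes, but not all of the Sprr genes. Sprr1a was called in neither arm (log2 change -1.28 in P and -0.40 in PD), and neither was Sprr4 (-1.82 and 1.93). In P wounds 0 members rose and 10 fell, beside 11.2% and 12.6% of all genes: 2 Lce3 genes, Sprr1b, 6 Sprr2 genes and Sprr3. In PD wounds 0 rose and 18 fell, beside 15.7% and 15.6%: all 6 Lce3 genes, Sprr1b and 11 of the 12 Sprr2 genes. None of the 14 Lce1 genes fell or rose in either arm by this test, and none had an unadjusted p under 0.05. Sprr2h fell by 2.79 ± 0.83 on the log2 scale in P (edgeR adjusted p = 0.0131) and by 2.92 ± 0.81 in PD (edgeR adjusted p = 0.00603). Sprr1b fell by 3.77 ± 1.05 in PD (edgeR adjusted p = 0.00583). Sprr2a3, subject to the shared sequence above, fell by 3.53 ± 0.79 in P (edgeR adjusted p = 0.00135) and by 3.74 ± 0.78 in PD (edgeR adjusted p = 0.000391). The P count of 10 ranged from 5 to 18: it was 18 without P day 12 library 1, and 5 or 6 without P day 4 library 2 or 4 or P day 12 library 3, 4, 5 or 6. One member rose in PD without PD day 4 library 1. Summed Krt5 and Krt14 moved with this step, from 10397 to 22213 CPM at day 4 to 5317 to 10710 CPM at day 12 in P, and from 7988 to 22061 CPM to 2424 to 13021 CPM in PD. With that level as a covariate, 4 members fell and 1 rose in P, and 3 fell and 10 rose in PD. The share of all genes called by that fit is not given here, so these counts have no general rate beside them. The falls given above with their sizes were then not called, with edgeR adjusted p of 0.337 and 0.346 for Sprr2h, 0.492 for Sprr1b in PD, and 0.142 and 0.0529 for Sprr2a3.

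Across libraries the members followed 2 patterns. Summed Lce3 and Sprr2 had a Spearman correlation of 0.929 over the 36 libraries, Sprr1 and Sprr2 one of 0.811, and Lce1 and Lce6a one of 0.964. Lce1 and Sprr2 had one of only 0.178, and Lce1 and Lce3 one of 0.442. These are descriptions of libraries that share groups and scaling. By the same measure, and among 15372 other genes, the summed Sprr level was most like Klk6 (0.954), Endou (0.953), Klk10 (0.952), Crabp2 (0.917) and Ehf (0.913). The summed Lce level was most like Lor, the gene of loricrin (0.979), Nccrp1 (0.977), Gm45609 (0.972), 2310050C09Rik (0.965) and Crct1 (0.958). Over the 33 wound libraries the correlation with summed Krt5 and Krt14 was 0.184 for Lce1, 0.56 for Lce3, 0.515 for Sprr1 and 0.649 for Sprr2. The gene with the symbol 2310046K23Rik (Sprr5) was at 30.5 to 68.3 CPM in unwounded skin, 4.33 to 187 CPM in P day 2 and 266 to 624 CPM in P day 4.

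**Figure D4:**
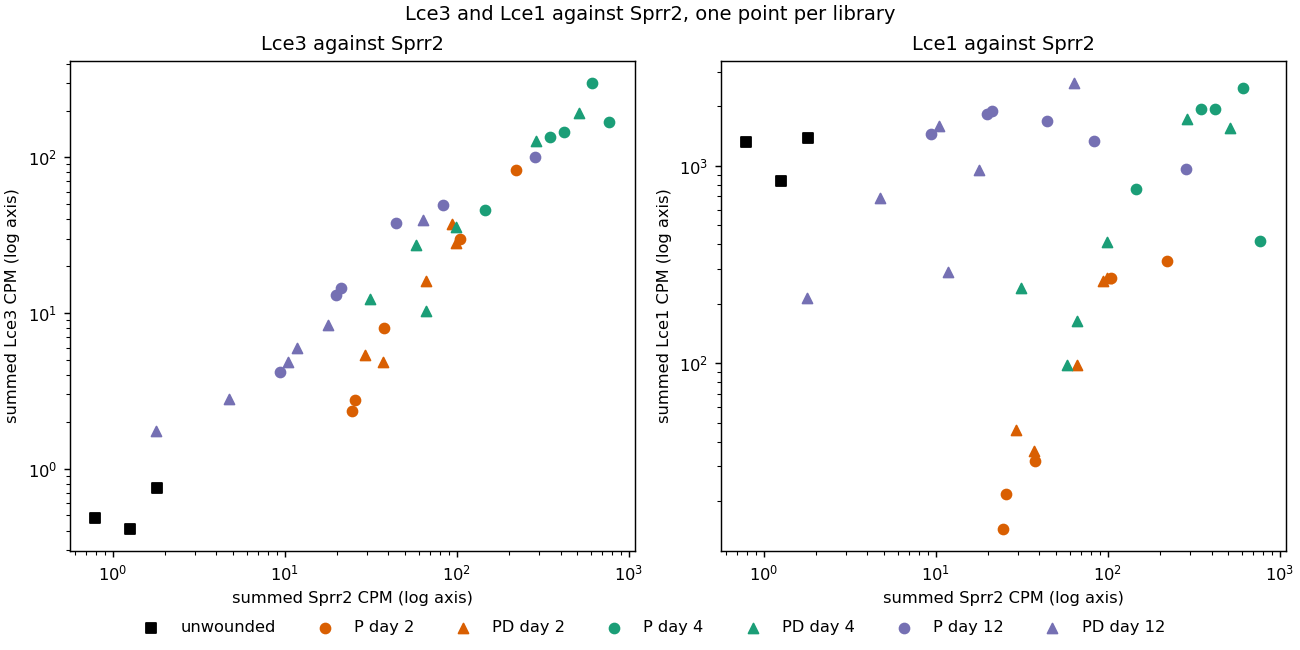
Summed Lce3 (left) and Lce1 (right) against summed Sprr2, all in CPM on log axes, with 1 point per library coloured by day and shaped by arm. Lce3 rises along with Sprr2 over all groups (Spearman 0.929), whereas Lce1 does not line up with Sprr2 (0.178): the 3 unwounded and most day 12 libraries hold high Lce1 at low Sprr2.

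Sprr3 and Sprr4 were each far higher in 1 P day 4 library than in the others. Sprr3 had no count in 20 of 36 libraries, was above 1 CPM in only 1, P day 4 library 4 with 37.3 CPM, and was at 0.254, 0.628, 0 and 0.199 CPM in the other P day 4 libraries. That library also had the lowest Lce1 (415 CPM) and the highest Sprr2 (764 CPM) of its group. Krt4 and Krt13, keratins of the mouth and oesophagus where Sprr3 is abundant, stood at 0.0503 to 4.74 CPM and 0 to 0.349 CPM in P day 4. The lowest values of both, 0.0503 and 0 CPM, were those of library 4. The edgeR calls for Sprr3 in P day 4 (log2 change 11.06 ± 2.91 against unwounded skin, adjusted p = 0.00302; 7.38 ± 1.68 against day 2, adjusted p = 0.00631) and in the fall to day 12 (-5.87 ± 1.41, adjusted p = 0.0029) lean on it. With the counts of all P day 4 libraries pooled, Sprr3 was at least 184-fold higher than unwounded skin, but 741 of the 781 pooled counts came from library 4. Without that library the change against unwounded skin was 6.19 (edgeR adjusted p = 0.0391), and the other two had edgeR adjusted p of 0.225 and 0.615. Sprr4 measured 12.6, 13.3, 246, 3.77 and 4.71 CPM in P day 4 and 0.79, 0.651 and 1.06 CPM in unwounded skin, and its call (5.90 ± 1.84, edgeR adjusted p = 0.0105) had an adjusted p of 0.0721 without P day 4 library 3. The Sprr3 and Sprr4 calls were also lost with limma-voom (limma adjusted p = 0.058, 0.175 and 0.121 for Sprr3 and 0.0541 for Sprr4), and that of Sprr4 with the Krt5 and Krt14 covariate (edgeR adjusted p = 0.467). In P day 4 library 3 a list of 12 inner root sheath and hair shaft genes summed to 11102 CPM, against 6.58 to 21.3 CPM in the other P day 4 libraries; these genes stood at 651 to 16932 CPM in P day 12. Its part in the Sprr4 value was not tested.

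The study's own contrast, PD against P at the same day, gave 0 higher and 0 lower members at day 2, day 4, day 12 and over the 3 days together, beside 0.0% of all genes (edgeR). The smallest adjusted p of a member was 0.189, for Sprr3 at day 4. At unadjusted p under 0.05 there was 1 member at day 2, 6 at day 4, 10 at day 12 and 16 over the 3 days, beside 3.84%, 11.5%, 4.95% and 12.0% of all genes. DESeq2 called 1 member lower at day 4, Sprr4, beside 0.833% of all genes, and the same tool called 1 over the 3 days. For the latter the share of all genes is not given here. limma-voom called 0 members in each of these contrasts. In the change of this difference from day 4 to day 12, 0 members passed, and 1 had an unadjusted p under 0.05, beside 3.02% of all genes.

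The values themselves lay lower in PD on days 4 and 12. At day 4 the log2 difference was below 0 for 37 of 37 members, with medians of -1.13 for Lce1, -1.27 for Lce3, -1.25 for Sprr1 and -1.88 for Sprr2, against -0.01 over all genes. Members move together across libraries, so this count does not add up to 37 separate observations. At day 12 it was below 0 for 36 of 37, with medians of -0.48 for Lce1, -2.05 for Lce3 and -3.28 for Sprr2, against -0.03 over all genes. The smallest unadjusted p were those of Sprr2i (-4.76 ± 1.3, unadjusted p = 0.000882, edgeR adjusted p = 0.884) and Sprr2e (-3.59 ± 1.09, unadjusted p = 0.00236, edgeR adjusted p = 0.884). At day 2 the Lce1 median was 0.04 and that of Sprr2 -0.52. Library numbers bear on these values. With libraries numbered 1 and 2 only, the day 4 median over members was -0.48 with 0 calls; with those numbered 3 and above only, it was -2.48, and 14 of 35 members were lower (edgeR adjusted p under 0.05), beside 2.68% of all genes. The P libraries of that fit are 3, 4 and 5, which include the libraries with the outlying Sprr3 and Sprr4 values. The day 2 medians were -0.51 and 1.01 in the same split, so the sign depended on which libraries were used. At day 12, 19 of 37 members were below 0 with libraries numbered 1 and 2 only, and 34 of 35 with those numbered 3 and above only.

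**Figure D5:**
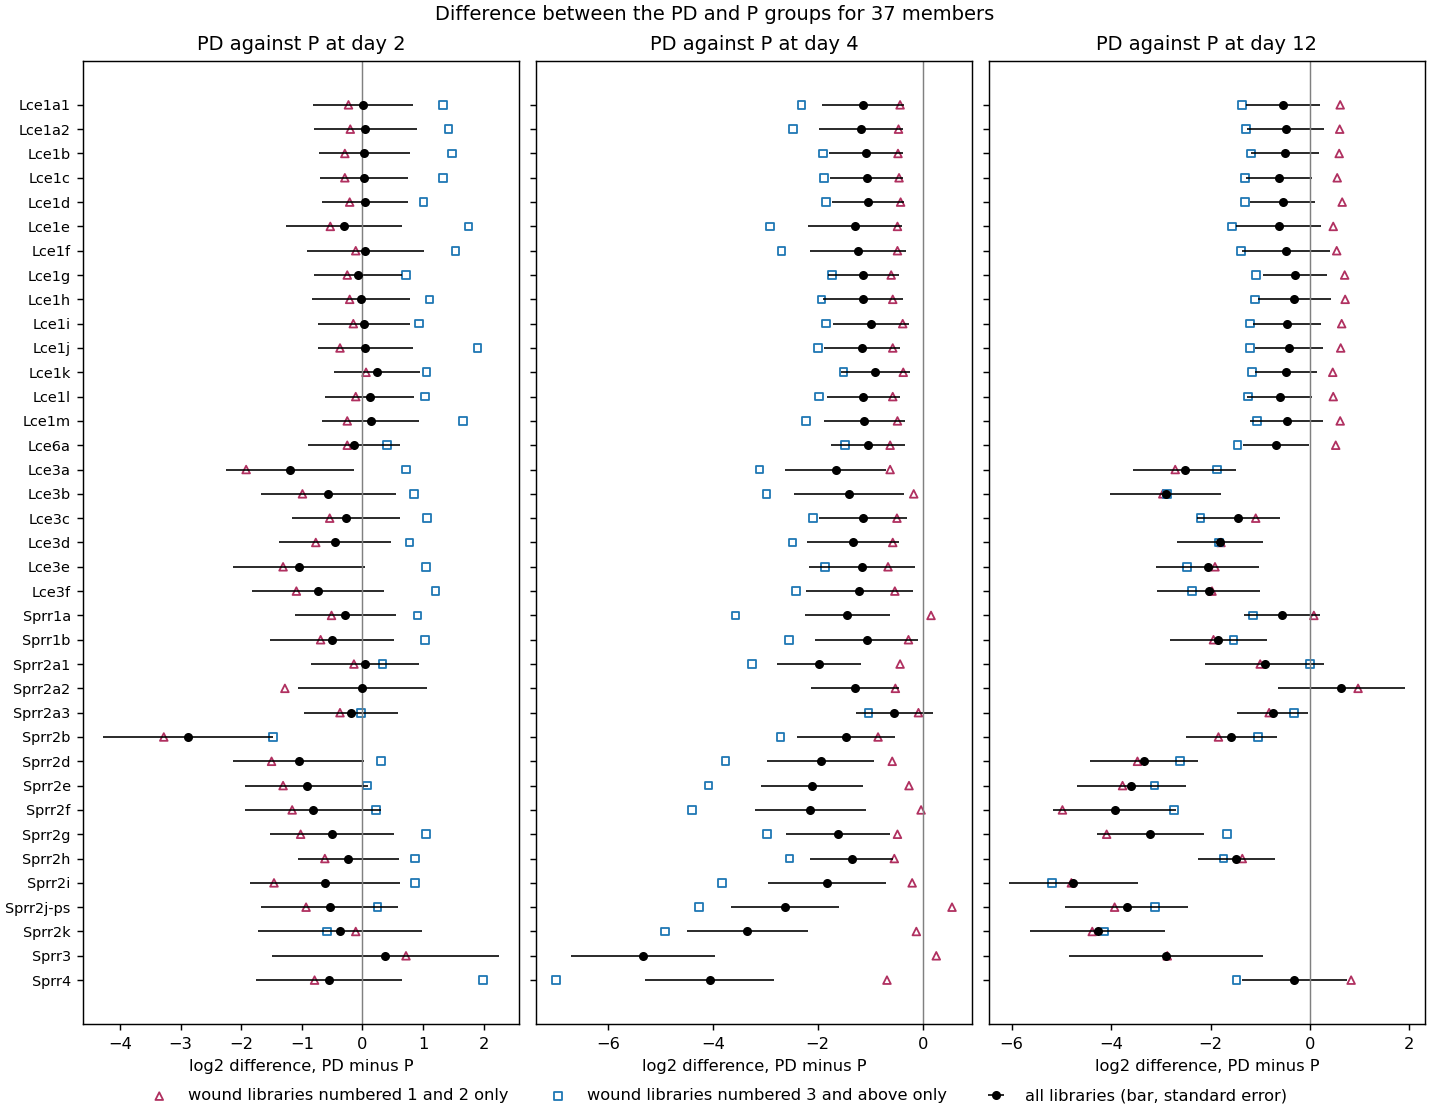
Log2 difference PD minus P for the 37 tested members at days 2, 4 and 12. Black points are the fit of all libraries with bars of 1 standard error, triangles the fit with wound libraries numbered 1 and 2 only, squares the fit with those numbered 3 and above only; at day 4 the squares lie left of the triangles for all 35 members that have both.

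Other genes of the envelope gave the setting of these changes. Of 19 tested further envelope proteins, 1 rose and 10 fell in P day 2 against unwounded skin, beside 22.3% and 19% of all genes, and 0 rose and 10 fell in PD, beside 21% and 18.4%. From day 2 to day 4, 16 of the 19 rose in P and 2 in PD, beside 5.76% and 2.67% of all genes, and 0 fell. Lor, the most abundant cross-linked envelope protein of skin, went from 704 to 1327 CPM in unwounded skin to 9.92 to 264 CPM in P day 2 (log2 change -3.45 ± 1.13, edgeR adjusted p = 0.0144) and 186 to 2865 CPM in P day 4. Dsp, the desmosomal plaque protein desmoplakin, was at 1257 to 1741 CPM in unwounded skin and 330 to 1216 CPM in P day 2, and its change of -1.15 ± 0.55 did not pass (edgeR adjusted p = 0.0911). Krtdap, a keratinocyte differentiation protein, fell by 1.98 ± 0.56 on the log2 scale in P day 2 (edgeR adjusted p = 0.00519). Tchh, trichohyalin of the hair inner root sheath, belongs to the same list and rose at day 12 in P (7.97 ± 2.00, edgeR adjusted p = 0.00189).

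Of 14 genes that cross-link the envelope or make its lipid coat, 1 rose and 2 fell in P day 2 (22.3% and 19% of all genes) and 6 rose and 0 fell in P day 4 (23.6% and 19.7%). In PD 1 rose and 5 fell at day 2 (21% and 18.4%), and 4 rose and 1 fell at day 4 (25.4% and 21.8%). Casp14, the caspase of cornifying cells, rose by 2.48 ± 0.65 in P day 4 (edgeR adjusted p = 0.00275), as did Asprv1, a protease of the granular layer, by 1.82 ± 0.60 (edgeR adjusted p = 0.0143) and Tgm1, the main envelope transglutaminase, by 1.96 ± 0.53 (edgeR adjusted p = 0.00343). Elovl4, which makes very long fatty acids for barrier lipids, changed by 0.76 ± 0.40 and did not pass (edgeR adjusted p = 0.12). Of 20 transcription factors known to act on envelope genes, 9 rose and 6 fell in P day 2, beside 22.3% and 19% of all genes, and 9 rose and 5 fell in PD day 2, beside 21% and 18.4%. Among the AP-1 genes Junb rose from 48.4 to 76.2 CPM in unwounded skin to 525 to 1002 CPM in P day 2 (log2 change 3.39 ± 0.42, edgeR adjusted p = 1.79e-07), Jun rose by 1.29 ± 0.27 (edgeR adjusted p = 0.000283) and Fosl2 by 0.93 ± 0.25 (edgeR adjusted p = 0.00387). Klf4, a factor of the upper epidermis, fell by 1.71 ± 0.45 (edgeR adjusted p = 0.00295). RNA of these factors says nothing about their binding.

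Markers of other cells in the tissue moved with the same contrasts. Of 15 epidermal keratins and keratinocyte markers, 4 rose and 7 fell in P day 2, and 6 rose and 3 fell in P day 4. Beside this and the next lists, 22.3% of all genes rose and 19% fell in P day 2, 23.6% and 19.7% in P day 4, and 23.7% and 20% in P day 12. All 8 neutrophil and all 8 macrophage genes rose in P day 2, the neutrophil sum from 15.9 to 20.7 CPM in unwounded skin to 4782 to 8813 CPM. Of 8 fibroblast genes, 4 rose in P day 2 and 6 in P day 12, where their sum was 13589 to 94136 CPM against 1372 to 2113 CPM in unwounded skin. Of 8 skeletal muscle genes, which summed to 50670 to 73714 CPM in unwounded skin, 1 fell in P day 2 and 6 in P day 12. Of 8 adipocyte genes, 2 fell in P day 2 and all 8 in P day 12. None of the 12 inner root sheath and hair genes was called at day 2, and all 12 rose in P day 12. The PD against P contrasts called 0 genes of each list. The part of these shifts in the member values was not tested.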

How the data were processed

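Poly(A) RNA of 36 mouse skin samples was sequenced after TruSeq stranded library preparation, per the labels' protocols. Per the submitters' processing notes, the tools used were HISAT2 2.1.0, HTSeq, SAMtools 1.9 and Trimmomatic, with genome build GRCm39; per the series' design text HISAT2 did the mapping and HTSeq the counting. The deposited values are whole-number counts per gene, and reads that fit several genes equally well are usually not counted by such tools, which bears on the members with shared sequence. Totals ran from 11.81 M to 58.38 M reads. The counting options are not given in the sources used here.

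Samples were grouped by the arm and day in the labels. Counts were scaled to CPM over all genes of a library for levels. Differences were tested with edgeR 4.0.16 (R 4.3.3) by quasi-likelihood with TMM scaling, filterByExpr (minimum count 10) and 7 group means fitted to all 36 libraries, and p-values were adjusted by Benjamini-Hochberg over 20657 genes with a threshold of 0.05. Alternatives used limma 3.58.1, DESeq2 1.42.0, sva 3.50.0, other filters and scalings, a replicate block and leaving out each library. Tested on simulated data over 20657 genes, the fit found 27 of 100 genes changed 2-fold and 57 of 100 changed 4-fold for P day 2 against unwounded skin, and 42 and 66 of 100 for PD against P at day 4. Libraries of the same group were compared with each other, and no such pair agreed within sampling noise (lowest chi-square per degree of freedom 12.3); pairs across groups were not compared.

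Members, lists and tests were chosen with earlier results of these data known. Members were described with values where their mean reached 10 CPM in a group, lists by up to 4 genes of highest mean CPM, and likeness by the 5 genes of highest correlation. Sprr3 was described as well, although its highest group mean was 7.67 CPM, in P day 4. Fits that split the libraries by number or used keratin levels were added after the data were seen. Promoter windows of 250 bases came from GRCm39 with GENCODE vM39 starts.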

Additional observations from a re-analysis of the deposited data

Results flagged for a closer look

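Of 78 groups of values examined, 17 held a library set apart from the rest of its group by Dixon's criterion. For normally distributed values chance does so in about 1 group in 20. The CPM values were not transformed and some lay near 0, so that rate may not hold here. These values are not independent, since members share libraries. PD day 12 library 2 was set apart in summed Lce3 (39.7 CPM, next 8.33), summed Sprr2 (63.2, next 17.9), Lce1g (146.0, next 57.5), Lce3c (21, next 3.71), Sprr1b (102.0, next 32.2) and Sprr2h (34.4, next 7.54). P day 12 library 1 was set apart in summed Sprr1 (789.0 CPM, next 428.0), summed Sprr2 (284.0, next 83.3), Sprr2h (72.0, next 28.5), Sprr3 (0.671, next 0.164) and, as the lowest of its group, Lce1m (70.1, next 194.0). P day 2 library 1 was highest in Sprr1a (596.0 CPM, next 171.0) and Sprr4 (12.6, next 3.31). PD day 4 library 1 was highest in Sprr4 (12.8 CPM, next 3.76). All of these libraries are numbered 1 or 2.

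The remaining values were Sprr3 in P day 4 library 4 (37.3 CPM, next 0.628), Sprr4 in P day 4 library 3 (246.0 CPM, next 13.3) and Sprr3 in PD day 12 library 1 (0.0936 CPM, the others at 0).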

How the results depend on the processing

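Counts of members called were compared over 14 other settings and with each library left out. Unless a share of all genes is given above, these counts are not set beside the general rate of the same fit. They describe how the calls moved and are not results about the members. Against unwounded skin, limma-voom called 2 higher members in P day 2, 6 in P day 12, 2 in PD day 2 and 2 in PD day 12, and 2 lower in PD day 4. The PD day 12 count of 11 higher became 19 with DESeq2, 7 with no filter, 17 with the replicate block, 20 with 2 surrogate variables, 18 with a term for libraries 1 and 2, and 26 with libraries 1 and 2 only. PD day 4 had 32 higher with libraries 1 and 2 only, and 6 lower with libraries 3 and above only and 6 with the keratin covariate. P day 2 had 5 lower with only the compared libraries, 13 with 2 surrogate variables and 14 with libraries 3 and above only; PD day 2 had 5 lower with no filter. P day 4 had 0 lower with no composition factor and with no filter, and 2 with the keratin covariate. P day 12 had 1 lower with only the compared libraries, libraries 1 and 2 only or the keratin covariate. PD day 12 had 0 lower with no composition factor, no filter or the keratin covariate.

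Between days, P day 4 against day 2 gave 36 higher with the replicate block, 37 with 2 surrogate variables or the number term, 32 with libraries 3 and above only and 4 with the keratin covariate. PD day 4 against day 2 gave 15 with DESeq2, 1 with limma-voom, 1 with no filter, 0 with only the compared libraries, 16 with the replicate block, 23 with 2 surrogate variables, 18 with the number term and 17 with libraries 1 and 2 only. P day 12 against day 4 gave 17 lower with limma-voom, the replicate block or libraries 3 and above only, 5 with no filter, 19 with 2 surrogate variables or the number term, 6 with libraries 1 and 2 only, and 4 lower and 1 higher with the keratin covariate. PD day 12 against day 4 gave 3 lower and 10 higher with the keratin covariate, 1 higher with the number term and 3 higher with libraries 3 and above only. PD against P gave 1 lower with DESeq2 at day 4 and 1 over the days, and 14 lower at day 4 with libraries 3 and above only. The causes were not tested.

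With 1 library left out, counts ranged as follows: P day 2, 5 to 9 lower; P day 4, 0 to 1 lower; PD day 2, 6 to 14 higher and 5 to 8 lower; PD day 12, 3 to 13 higher and 0 to 1 lower; P day 4 against day 2, 12 to 31 higher; P day 12 against day 4, 5 to 18 lower; PD day 4 against day 2, 0 to 6 higher; PD day 12 against day 4, 0 to 1 higher. Of 47 named results 1 reversed: Sprr3, PD against P at day 4, was 0.26 with libraries 1 and 2 only. Of 47 named results, limma-voom lost the call of 15 and the keratin covariate that of 10; the replicate block lost none and added 1 (Sprr1a, PD day 2). Not every same-number pair correlated above 0.1, so the numbers were not taken as pairing: 47 of 78 same-number pairs did, against 105 of 375 pairs of different numbers (medians 0.135 and -0.047), and 9 of 33 libraries correlated best with their own number. Leaving out composition factors moved the median of all genes by 0.27 in P day 12 and 0.24 in PD day 12 against unwounded skin.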
